A study of Mus musculus with 4 samples.

Results

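The Gnas imprinted locus was examined in 4 lists of methylated DNA peaks, as the peaks overlapping chr2:174100000-174180000 of the mouse build mm9. The members were chosen by position alone. The window held 35 of the 690963 peaks of the series, with 8 in islets of offspring of control fathers, 6 in islets of offspring of T2D fathers, 11 in control sperm and 10 in T2D sperm. Where peaks of different lists overlapped by at least 1 bp they were joined into a union region, which gave 14 regions in the window, of 307189 in the genome. They are numbered 1 to 14 in order along the chromosome. The window comes from the definition of the locus used here and was not checked against gene positions, since no annotation on mm9 was used. No promoter or exon is therefore placed at any peak.

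Gnas encodes the stimulatory G protein alpha subunit, which couples hormone receptors to cyclic AMP production, and in beta cells cyclic AMP amplifies glucose-stimulated insulin secretion. The locus has several promoters with opposite imprints. The Nesp promoter, which gives a secretory granule protein from the maternal copy, is methylated on the paternal copy. The promoters of the antisense RNA Nespas and of Gnasxl, a larger form of the alpha subunit, and the promoter of the untranslated exon 1A transcript are methylated on the maternal copy. The maternal marks are set in the oocyte, and the paternal mark at Nesp is acquired after fertilisation, so that neither kind is known as a mark of sperm DNA. In the RefSeq gene table of GRCm38.p6, a later build, Gnas is preceded by its antisense gene Gnasas1 (Nespas), the microRNA genes Mir298 and Mir296, and Npepl1 and Stx16. It is followed by Gm30189, Nelfcd and Ctsz.

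The DNA came from ICR mice, an outbred strain. T2D fathers had eaten a diet with 33% of energy from fat until 12 weeks of age, were then given low-dose streptozotocin, a beta cell toxin, and were taken as diabetic with fasting glucose of 7 to 11 mM during the following 4 weeks, while control fathers had eaten a control diet. Fathers were mated at 16 weeks of age. Islets were taken from 6 offspring per group at 3 weeks of age, and sperm from 6 founders per group at 16 weeks, with a lysis step against somatic cells. Each of the 4 groups had 1 library, and how the animals were combined is not given in the labels. Differences between libraries therefore have no replicate check, and no test over libraries was made. Intervals given below cover counting error only, and amplified reads are not independent molecules. The sperm libraries held 31053754 unique tags (control) and 31833988 (T2D), a tag being a sequenced read. For islets no source used here gives that total, so tags are compared between tissues only as shares of the tags in a library's called peaks of the window.

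Methylated DNA capture depends on CpG sites, and the listed Gnas promoters differ in how many they hold. The 3 RefSeq promoter sequences of Gnas that follow (GRCm38.p6, plus strand, 250 bases before to 50 after a transcript start) show this, with each CpG in capitals. The table lists them only as starts of Gnas. It does not say which transcript each one starts, so they are called here by their order along the gene.
Upstream start: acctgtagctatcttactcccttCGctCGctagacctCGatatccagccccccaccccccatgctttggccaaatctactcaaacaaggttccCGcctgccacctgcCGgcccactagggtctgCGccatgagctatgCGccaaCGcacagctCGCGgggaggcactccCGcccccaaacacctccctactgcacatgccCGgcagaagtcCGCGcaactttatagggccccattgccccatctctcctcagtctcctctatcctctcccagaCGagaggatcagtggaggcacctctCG
Middle start: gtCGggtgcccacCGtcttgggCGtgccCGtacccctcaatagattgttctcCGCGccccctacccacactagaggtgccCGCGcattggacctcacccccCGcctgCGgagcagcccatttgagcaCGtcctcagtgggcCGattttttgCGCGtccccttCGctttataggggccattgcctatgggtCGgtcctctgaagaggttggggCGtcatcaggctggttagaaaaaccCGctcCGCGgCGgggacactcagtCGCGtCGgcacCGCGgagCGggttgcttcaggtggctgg
Downstream start: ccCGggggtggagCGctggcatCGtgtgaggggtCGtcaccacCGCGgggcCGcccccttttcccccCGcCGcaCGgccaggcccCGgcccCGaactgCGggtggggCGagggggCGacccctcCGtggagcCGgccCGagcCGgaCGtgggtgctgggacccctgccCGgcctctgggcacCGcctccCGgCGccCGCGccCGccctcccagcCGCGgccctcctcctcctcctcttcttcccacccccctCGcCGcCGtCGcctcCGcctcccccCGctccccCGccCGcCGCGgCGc
The upstream promoter held 16 CpG in 300 bases, the middle promoter 27 and the downstream promoter 40. Another start in the table overlaps the middle sequence and held 28. The letters CG read the same on both strands. Over 32851 RefSeq promoters of the same length the median was 7 CpG, and 33.0%, 15.5% and 3.91% of them held at least as many as the upstream, middle and downstream promoter. These sequences describe the promoters and were not matched to peaks.

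Peaks covered 12.5% of the window in control islets, 9.08% in T2D islets, 17.1% in control sperm and 13.9% in T2D sperm. In both tissues the T2D library had fewer peaks and covered fewer bases than the control library. For sperm the order of peak numbers turned with the window widened by 20 kb on either side (16 in control, 18 in T2D) and among the best 50% of each list by score (4 and 5). Peaks were 582 to 2519 bp wide and held 19 to 203 tags. Their scores, which are the caller's p-values as negative log10 multiplied by 10, ran from 50.49 to 255.01, where a score of 50 was the lowest in any list. Their enrichments over the caller's background ran from 4.52 to 9.12. The median enrichment in the window was 7.34 and 6.33 in control and T2D islets and 5.54 and 5.77 in control and T2D sperm, against 7.35, 7.28, 6.77 and 6.75 over the whole lists. The scores and enrichments are the authors' values, each relative to its own library.

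**Figure D1:**
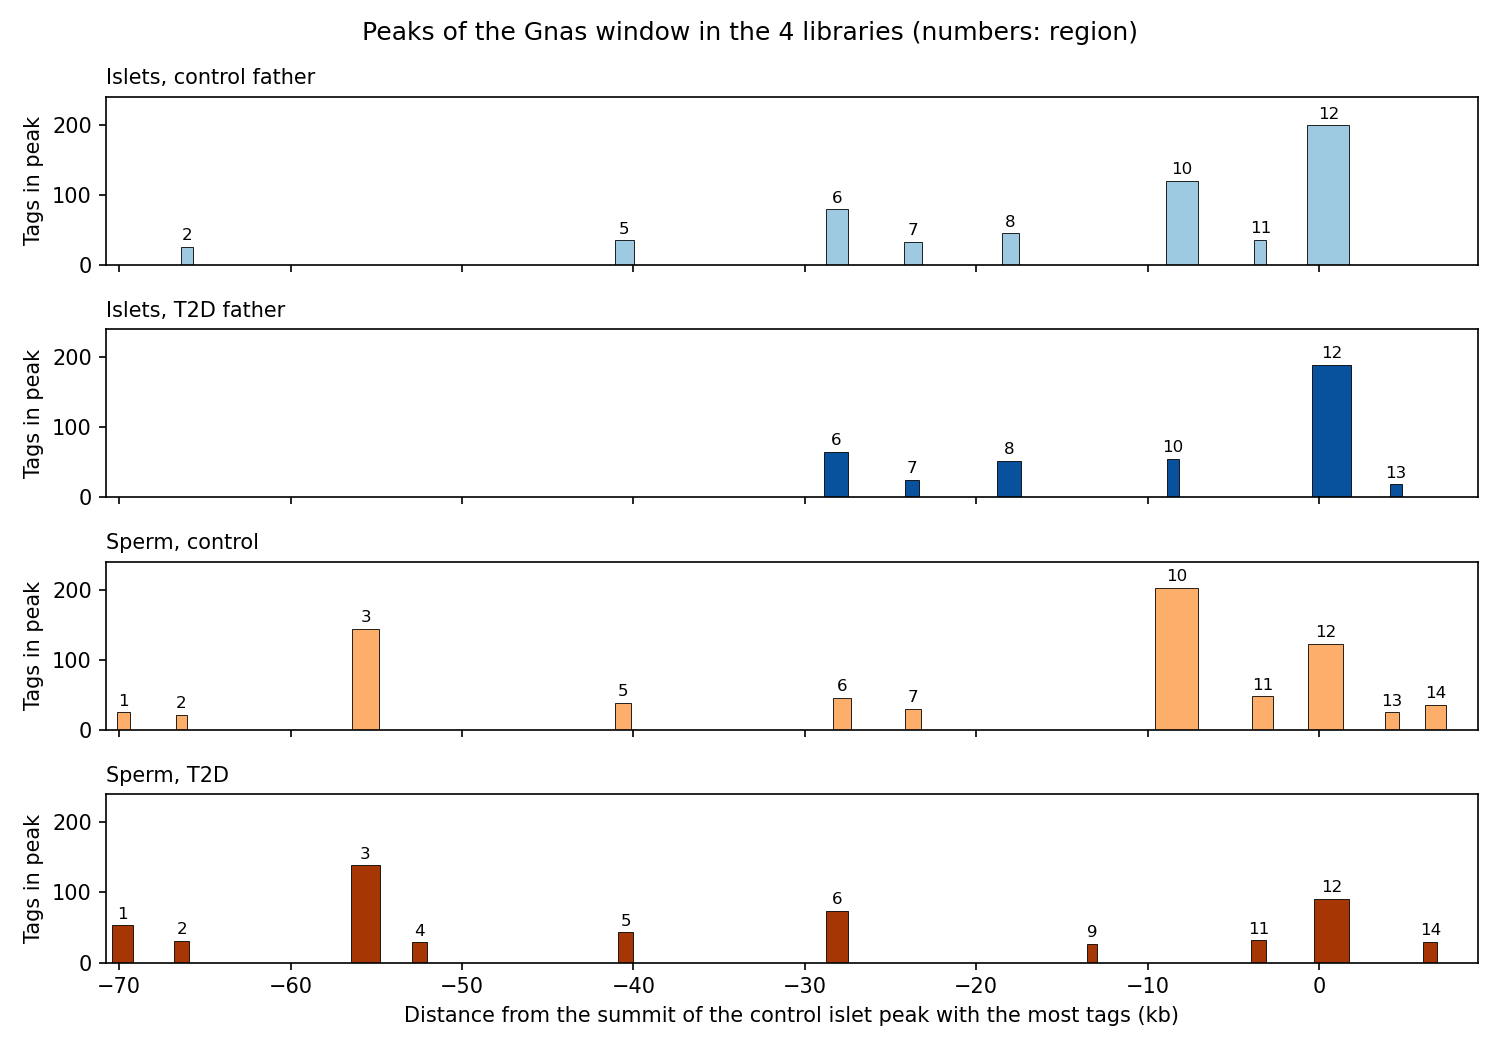
Peaks of the Gnas window in each library, with tags per peak on the vertical axis and distance in kb from the summit of the control islet peak with the most tags (region 12) on the horizontal axis. Each bar is a peak drawn to its width and numbered by region; T2D islets hold no peak left of region 6, and the largest bars are region 12 in islets, region 10 in control sperm and region 3 in T2D sperm.

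Only 1 region, region 8 (chr2:174151939-174153373), was called in both islet libraries and in neither sperm library. That is 7.14% of the 14 regions, against 8.39% of all union regions of the genome. Its peak held 45 tags over 1009 bp in control islets and 52 tags over 1435 bp in T2D islets. The summits were 34 bp apart. With a score of at least 100, or among the best 50% of each list by score, 0 regions of the window were called in this way. Both peaks were close to the middle of their lists by enrichment (7.12 and 6.87), and the T2D peak had a score of 53.36, near the minimum, while the control peak had 85.22. The nearest sperm peaks lay 4.40 kb away in control and 3.84 kb away in T2D sperm. Whether region 8 holds a promoter with a mark set in the oocyte was not tested.

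Called in both sperm libraries and in neither islet library were 3 regions, 21.4% of the 14, against 9.07% of all union regions. Region 3 (chr2:174114290-174115943) was by far the strongest of them by tags and score, with 144 tags over 1556 bp in control and 139 tags over 1654 bp in T2D sperm. Its enrichments were modest, at 5.92 in control and 5.49 in T2D sperm, above 30.3% and 22.2% of those lists. Its scores of 255.01 and 216.63 were the highest in the window and above those of 97.6% of all control sperm peaks and 95.9% of all T2D sperm peaks. It made up 19.4% of the control sperm tags in the window (95% Wilson interval 16.7% to 22.4%) and 25.3% of the T2D sperm tags (21.9% to 29.1%). The shares differ at nearly equal tags because the called peaks of the window held 741 tags in control and 549 in T2D sperm. The control sum includes 203 tags of region 10, where T2D sperm had no call. The nearest islet peaks lay 9.23 kb away in control and 25.9 kb away in T2D islets. The other regions of this kind had fewer tags and lower scores. Their T2D enrichments were higher than that of region 3 (6.07 for region 1, 6.04 for region 14), and their control enrichments were not (4.93 and 5.91). Region 1 (chr2:174100353-174101555) held 25 tags in control and 53 in T2D sperm, with scores of 52.45 and 55.33. Region 14 (chr2:174176844-174178178) held 36 and 30 tags, with scores of 50.49 and 63.71.

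All 4 libraries called 2 regions, 14.3% of the 14, against 21.5% of all union regions. Region 12 (chr2:174170070-174172627) held 199 tags in control islets, 189 in T2D islets, 123 in control sperm and 91 in T2D sperm. It was the largest islet peak of the window in both libraries and exceeded 99.5% of all control islet and 99.4% of all T2D islet peaks in tags. By enrichment it exceeded 46.3% of control islet peaks (7.12) and 8.68% of T2D islet peaks (4.96). In sperm it exceeded 37.3% in control (6.25) and 20.2% in T2D (5.37). Its share of the window's tags was 34.7% (30.9% to 38.7%) in control and 46.7% (41.9% to 51.5%) in T2D islets, and 16.6% in either sperm library (14.1% to 19.4% in control, 13.7% to 19.9% in T2D). The higher share in T2D islets is not a gain in tags, since the called peaks of the window held 573 tags in control and 405 in T2D islets. Its density of tags was 81.4 and 83.5 per kb of peak in control and T2D islets. In sperm it was 61.0 in control and 45.0 in T2D, on a scale that cannot be set against islets. The islet summits were 24 bp apart, whereas the sperm summits were 1071 bp apart, at positions 174170777 in control and 174171848 in T2D sperm. The control sperm summit was the closer to those of islets, at 174170755 and 174170731.

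Region 6 (chr2:174141882-174143456) was the other region called throughout. It held 79 tags in control islets, 65 in T2D islets, 46 in control sperm and 74 in T2D sperm. The T2D library thus held fewer tags than the control library in islets and more in sperm. All 4 summits fell within 28 bp of each other. Its enrichment in control sperm (9.12) was the highest in the window.

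**Figure D2:**
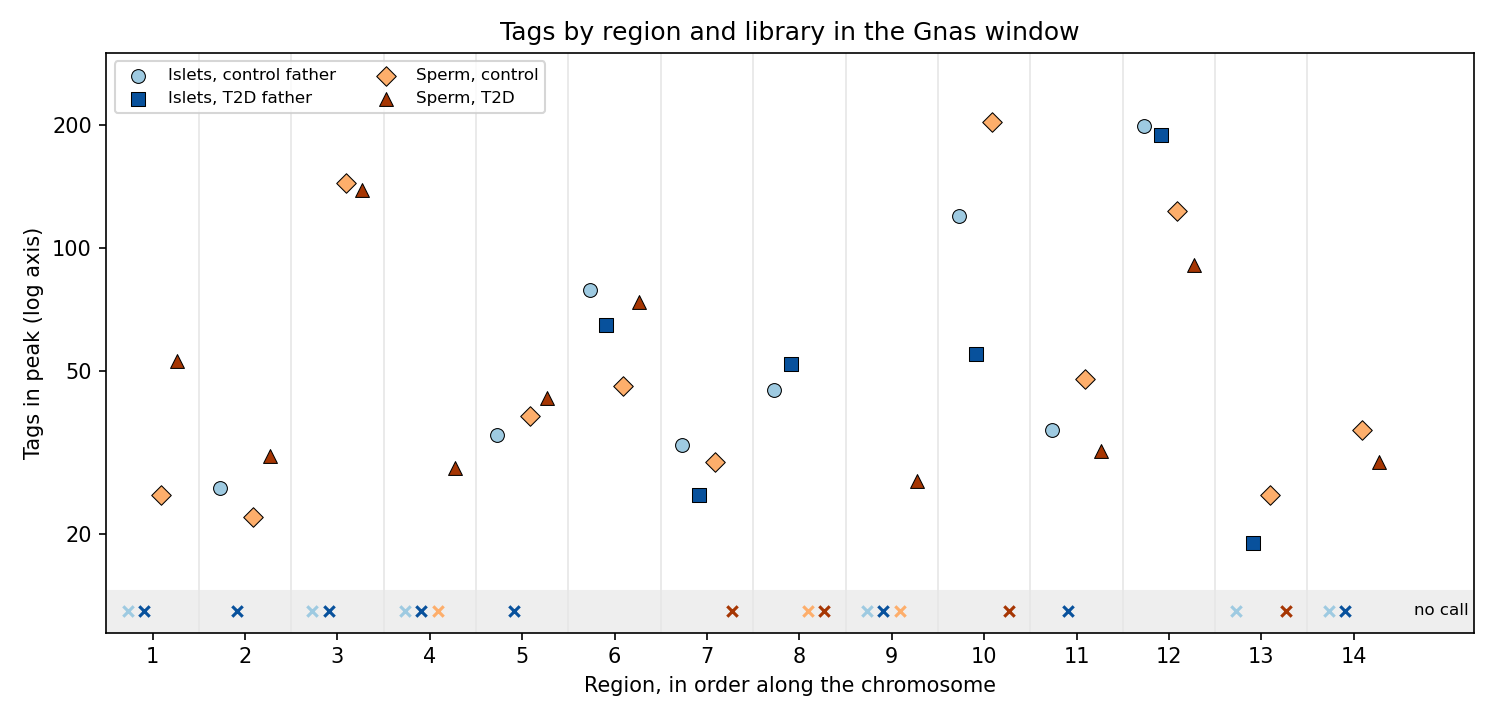
Tags in the peaks of each of the 14 regions (horizontal axis, in order along the chromosome) on a log axis, with a symbol per library and a cross in the grey band where a library called no peak. Region 3 has sperm symbols only, at 144 and 139 tags and region 8 has islet symbols only, at 45 and 52 tags.

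Regions called in 3 libraries formed 2 patterns, each with a call missing from the T2D library of a tissue. How regions called in 3 libraries split over the genome is not given here. Among all regions of the genome called in islets, 24.5% were control only and 24.4% T2D only. In sperm these shares were 23.0% and 23.5%. Regions 2, 5 and 11 were called in both sperm libraries and in control islets, without a T2D islet peak. Region 2 (chr2:174103954-174105057) held 26 tags in control islets and 22 and 31 in control and T2D sperm. Region 5 (chr2:174129701-174130756) held 35, 39 and 43 tags in the same order, and region 11 (chr2:174166766-174168040) held 36, 48 and 32. Their control islet peaks ranked low to middle by tags, above 20.2%, 41.4% and 43.4% of that list. Of all control islet peaks with at least as many tags, 25.4%, 20.2% and 19.8% also had no T2D partner, so such absences were common. The region 11 peak of control islets had a score of 121.60, higher than 76.6% of its list.

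Regions 7 and 10 were called in both islet libraries and in control sperm, without a T2D sperm peak. Region 7 (chr2:174146558-174147590) was small, with 33 tags in control islets, 25 in T2D islets and 30 in control sperm. Of all control sperm peaks with at least 30 tags, 24.8% also had no T2D partner. Region 10 (chr2:174161179-174163697) held 120 tags over 1833 bp in control islets, 55 tags over 714 bp in T2D islets and 203 tags over 2519 bp in control sperm. The 203 tags were the most in any peak of the window and more than in 98.6% of control sperm peaks. Of the 2455 control sperm peaks with at least 203 tags, 492 also had no T2D partner. The control sperm peak was broad and of modest score (103.18) and enrichment (5.26). T2D sperm peaks within 20% of its width held a median of 143 tags and at least 58. The nearest T2D sperm peak to region 10 lay 3.07 kb away. The absence of a call does not show that methylation was absent, since the caller sets its threshold against the local background over 5000 bp.

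The remaining regions held few tags. Region 4 (chr2:174117817-174118705, 29 tags, score 53.59) and region 9 (chr2:174157211-174157792, 27 tags, score 87.71) were called in T2D sperm alone. Region 13 (chr2:174174588-174175571) was called in T2D islets with 19 tags and in control sperm with 25 tags, at scores of 52.11 and 51.46.

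In islets, 9 of the 14 regions were called, of which 5 (55.6%) were shared by both libraries, 3 (33.3%) were found in control only and 1 (11.1%) in T2D only. Over the genome the shares were 51.1%, 24.5% and 24.4%, and with 9 regions a single call moves these shares by 11.1 percentage points. Tags in the 5 shared regions were compared after division by the T2D to control ratio of all shared islet regions, which was 1.01. Together they held 476 tags in control and 386 in T2D islets, a scaled ratio of 0.803 (exact binomial interval 0.700 to 0.920). The T2D peaks were also narrower, at 6603 bp in sum against 7586 bp, and per kb of peak the values were 58.5 in T2D and 62.7 in control islets, a scaled ratio of 0.923. On this scale the median density ratio of single regions was 0.960 in the window and 0.963 over all shared islet regions, so 1 is not the typical value. With all islet peaks of the window, shared or not, the ratio was 0.700. Without region 10, left out after its values were seen, the ratio was 0.921 (0.790 to 1.07).

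Region 10 had a scaled T2D to control ratio of 0.454 (0.324 to 0.630) and was the only shared islet region past 1.5-fold. Being lower by 1.5-fold held for 1 of 5 regions, against 9.12% of all shared islet regions, and being higher for 0 of 5, against 9.66%. The T2D peak of region 10 spanned 0.390 of the control width, and its density was 77.0 tags per kb against 65.5, a scaled ratio of 1.17. The difference in tags thus went with a difference in called width, and the density went the other way. By density 0 of the 5 regions were past 1.5-fold in either direction, against 14.8% of all shared islet regions. The other ratios of tags were 0.750 (0.428 to 1.30) for region 7, 0.815 (0.578 to 1.15) for region 6, 0.940 (0.767 to 1.15) for region 12 and 1.14 (0.753 to 1.74) for region 8, each with an interval that includes 1.

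In sperm, 13 of the 14 regions were called, of which 8 (61.5%) were shared, 3 (23.1%) were found in control only and 2 (15.4%) in T2D only, against 53.5%, 23.0% and 23.5% over the genome. The 8 shared regions held 483 tags in control and 493 in T2D sperm, a scaled ratio of 1.02 (0.899 to 1.16), and 51.6 and 50.9 tags per kb of peak. With all sperm peaks of the window the ratio was 0.742 (0.663 to 0.829). That sum includes the 203 control tags of region 10, which had no T2D call, so the sum fell below 1 once unshared peaks were counted. With shared regions alone the ratio also fell below 1 when scaled by unique tags (0.996), per kb of peak (0.989) and in the widened window (0.908), so no direction held for sperm.

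Individual sperm regions moved both ways. Region 1 had a scaled ratio of 2.12 (1.30 to 3.56) and region 6 of 1.61 (1.10 to 2.38). These were the 2 of 8 regions at least 1.5-fold higher in T2D, against 8.38% of all shared sperm regions. Lower by 1.5-fold were 0 of 8, against 7.76%. Region 11, at 0.667 (0.413 to 1.07), lay just short of that limit. Region 12 had a ratio of 0.741 (0.559 to 0.979), at nearly equal widths of 2017 and 2024 bp. Its interval excludes 1, but the ratio lies within the middle 80% of all shared sperm regions, 0.697 to 1.45. Region 3, with the most tags of the regions called in both sperm libraries and in neither islet library, had a ratio of 0.966 (0.760 to 1.23). The T2D peaks of regions 1 and 6 were wider, 1.60 and 1.24 times the control width, and their density ratios were 1.33 and 1.30. By density 0 of the 8 regions were past 1.5-fold in either direction, against 12.8% of all shared sperm regions.

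**Figure D3:**
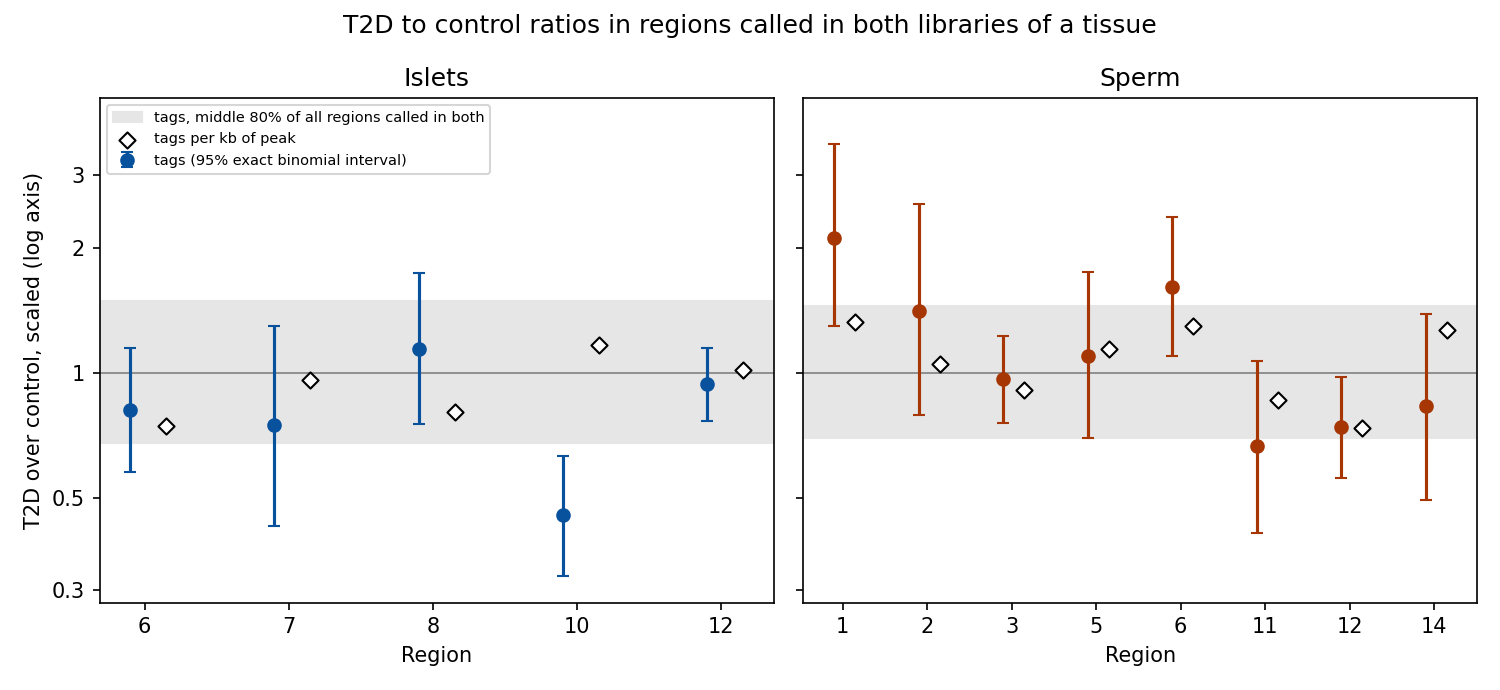
Scaled T2D to control ratios on a log axis for the 5 regions shared by both islet libraries (left) and the 8 shared by both sperm libraries (right). Filled points are tags with 95% exact binomial intervals, open diamonds are tags per kb of peak and the grey band is the middle 80% of tag ratios over all shared regions; region 10 in islets and regions 1, 6 and 11 in sperm lie outside the band by tags, region 11 on its low side at 0.667, and no diamond lies beyond 1.5-fold.

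The left part of the window set T2D islets apart from the other libraries, a division chosen after the values were seen. T2D islets had no peak over the 41.9 kb from the window's start to region 6. Over the same stretch control islets had 2 peaks with 61 tags, 10.6% of their tags in the window. Control sperm had 4 peaks with 230 tags (31.0%) and T2D sperm 5 peaks with 295 tags (53.7%). These are shares of the tags in called peaks, 741 in control and 549 in T2D sperm. The control sum includes 203 tags of region 10, where T2D sperm had no call, so the shares do not show a shift between the sperm libraries. The stretch without a T2D islet peak reached beyond the window, from 174083764 to 174141881, and was 58.1 kb long. Of all distances between neighbouring T2D islet peaks, 3.31% were at least as long, and the median was 7.93 kb. The longest such distance touching the window was 24.6 kb in control islets, from 174105058 to 174129700, and 14.2% of control islet distances were at least as long. Both stretches were picked as the longest touching the window, and a window meets long distances more often than their share by number. These shares therefore do not say how often a window of this size would meet such a stretch. Region 3, with its sperm peaks of many tags, lay inside both of these islet gaps. In control sperm the longest distance was 13.8 kb. In T2D sperm it was 13.9 kb and ran from 174143291 to 174157210, across regions 7 and 8.

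Summits of the 5 regions shared by both islet libraries were 15 to 34 bp apart. In the 8 regions shared by both sperm libraries they were 5 to 1071 bp apart. They nearly coincided in regions 1, 6 and 11, at 16, 5 and 9 bp, and were 93 bp apart in region 5. They were 305, 600, 1071 and 417 bp apart in regions 2, 3, 12 and 14. In region 6, shared by all libraries, the distance was 22 bp in islets and 5 bp in sperm, and in region 12, also shared by all, 24 and 1071 bp. No other region is in both sets, and distances over the rest of the genome are not given here.

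Set against equal lengths of the genome, the window was moderately rich in peaks in control islets and both sperm libraries, and near the median in T2D islets. Over 31307 tiles of 80 kb that held a peak in any library, the median was 5 peaks in either islet library and 6 in either sperm library. At least as many peaks as in the window were found in 28.1% of tiles for control islets (8 peaks), 45.5% for T2D islets (6), 11.3% for control sperm (11) and 17.8% for T2D sperm (10). The 80 kb to the left held 8 peaks in either islet library and 10 and 12 in control and T2D sperm. The 80 kb to the right held 9 and 8 in islets and 7 and 6 in sperm. Islet peaks on the left covered 9911 bases in control and 6888 in T2D, with 446 and 329 tags. On the right they covered 11609 and 11275 bases, with 692 and 607 tags. In the window they covered 10030 and 7261 bases, with 573 and 405 tags. Lower coverage and fewer tags in T2D islets were thus not particular to the window. The scaled T2D to control ratio of islet tags in shared regions, 0.803 in the window, was 0.963 (0.815 to 1.14) on the left and 0.930 (0.829 to 1.04) on the right. These intervals overlap that of the window, and the difference between the window and its flanks was not tested.

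**Figure D4:**
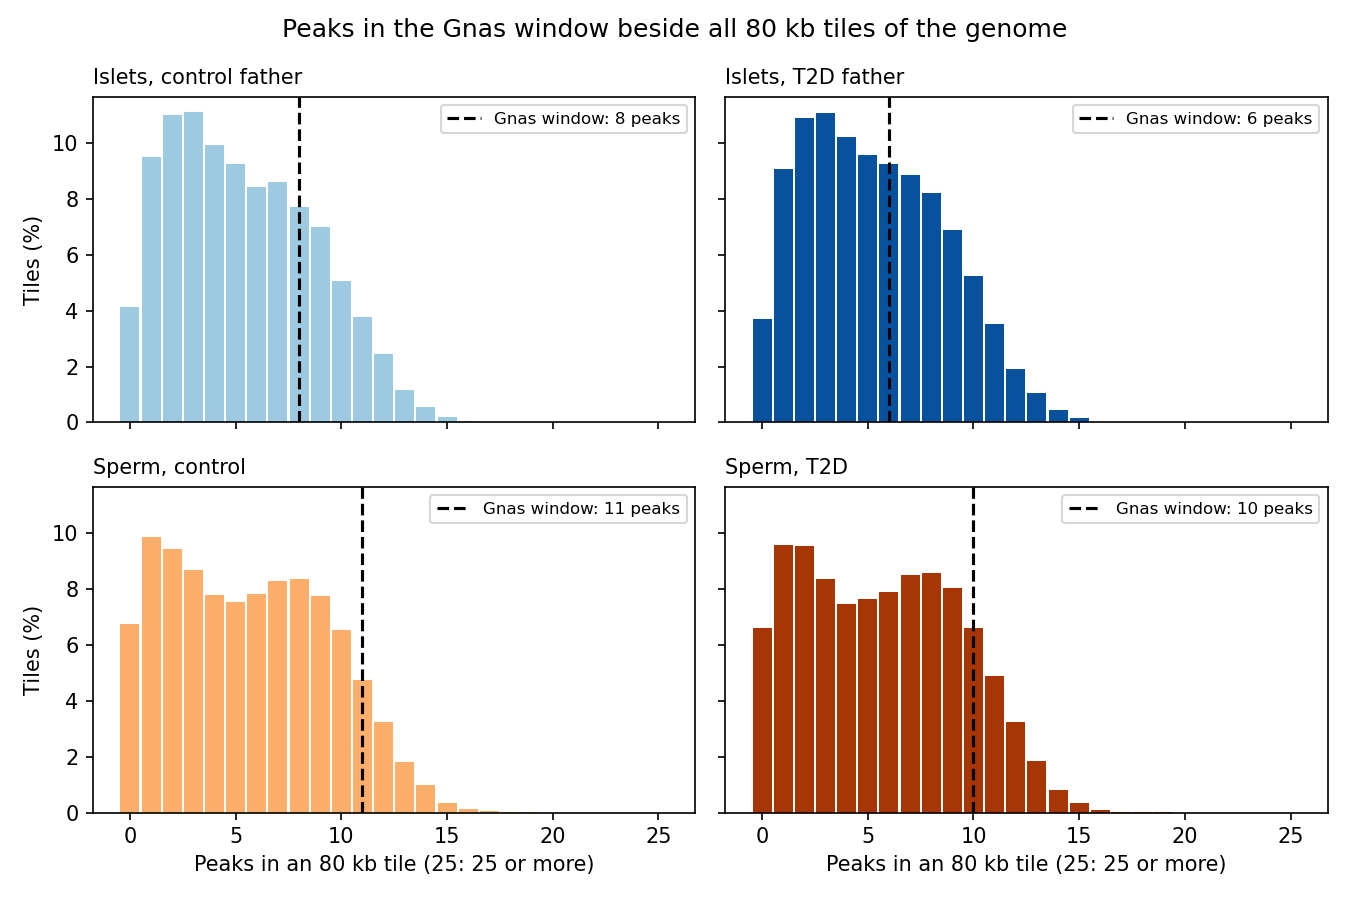
Share of 80 kb tiles of the genome (percent, vertical axis) by their number of peaks (horizontal axis, 25 standing for 25 or more), with a panel per library and a dashed line at the number in the Gnas window. The lines stand at 8 and 6 peaks in islets, where the median tile has 5, and at 11 and 10 in sperm, where it has 6.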

How the data were processed

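Methylated DNA was captured with an antibody against 5-methylcytosine and sequenced (MeDIP-seq), and the authors deposited 1 peak list per library on mm9, with CASAVA 1.4 named in the submitters' processing notes. Per the file headers, MACS called the sperm peaks with no control library (p-value threshold 1.00e-05, at most 2 tags per position, local background over 5000 bp). The islet lists carry no such comments, and no source used here names their caller. Effects of copy number and mappability remain in peaks called this way. The deposited tags are whole counts, not scaled to depth. The deposited score is the caller's p-value as negative log10, multiplied by 10, and the deposited fold enrichment is relative to the caller's background in that library. Peak width and summit are in bp, per the file headers, with the start counted from 1.

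Peaks were joined into union regions at 1 bp of overlap with pandas 2.3.3 and numpy 2.4.6. Tag ratios were divided by the ratio over all regions called in both libraries of the tissue, with exact binomial or Wilson intervals at 95% from scipy 1.17.1. The merging and ratio steps were tested on simulated lists. A ratio of 1.5 either way was counted as past the fold. All regions were given by position and tags, with widths, scores and enrichments for some of them. The definition of the locus and the choices made here were set with earlier results of these data known. Promoter sequences are from RefSeq (GRCm38.p6), and no coordinates were converted between builds. Alternatives varied the window, score, list length, overlap and scaling.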

Additional observations from a re-analysis of the deposited data

Results flagged for a closer look

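Region 6, the region of the Gnas window called in every library with closely placed summits, had fewer tags in T2D than in control islets (scaled ratio 0.815) and more in T2D than in control sperm (1.61). The pooled ratio of the window's shared regions also lay on opposite sides of 1, at 0.803 in islets and 1.02 in sperm. The sperm value fell below 1 when scaled by unique tags (0.996), per kb of peak (0.989), in the widened window (0.908) and with all peaks (0.742), and then lay on the same side as islets. With 1 library per group the difference between tissues was not tested for either of them. The islet interval of region 6 and the pooled sperm interval include 1.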

How the results depend on the processing

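No paired analysis was possible because each group had 1 library. Of 65 values recomputed for 17 results, 33 moved, mostly because fewer peaks or a longer window entered. With a score of at least 100, peaks numbered 4 and 3 in control and T2D islets and 4 and 2 in control and T2D sperm, covering 6228, 4361, 7143 and 2956 bases. Regions then numbered 1 in all 4 libraries, 0 in both islet libraries alone, 1 in both sperm libraries alone, 0 in T2D islets only, 1 in control islets only and 0 in T2D sperm only. With the best 50% of each list by score, peaks numbered 3 in T2D islets, 4 in control sperm and 5 in T2D sperm, covering 4361, 7143 and 6451 bases, so T2D sperm had more peaks than control sperm. Regions then numbered 0 in both islet libraries alone, 1 in both sperm libraries alone, 0 in T2D islets only and 1 in control sperm only. Region 8 thus no longer counted as called in both islet libraries under either limit. With the window widened by 20 kb on either side, T2D islets had 10 and T2D sperm 18 peaks, and covered bases were 15435 in control islets, 10969 in T2D islets and 17229 in T2D sperm. Control sperm then had 16 peaks, fewer than T2D sperm, and the sperm tag ratio was 0.908, below 1, as it was when scaled by unique tags (0.996). A reciprocal overlap of 50%, chosen after seeing the data, gave 2 regions in T2D islets only. With all peaks of the window the tag ratio was 0.700 in islets and 0.742 in sperm, and with tags per kb of peak, also chosen after seeing the data, 0.923 in islets. Counting only peaks wholly inside the window, joining within 1000 bp, no scaling and scaling by unique tags moved no count by over 1.5 times and no ratio beyond its interval. The depth of the islet libraries is unknown, and peaks near the score minimum of 50 rest on 19 to 53 tags.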
